A study of Mus musculus with 20 samples.

Results

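The histone genes detected in polyA RNA of the mouse brain were 25 of the 17211 genes in the deposited expression values. They were chosen by gene name (names that start with Hist1h, Hist2h, Hist3h, Hist4h, H1f, H2af or H3f) among the genes that the deposited values keep, and so were also selected on expression, since every gene kept has at least 0.5 reads scaled to library size (CPM) in at least 4 samples. The 12 genes with a Hist name are called replication-type here, and the other 13 are called replacement histone genes. The group was proposed with earlier results of the same genotype comparison known, so counts over the group are given as a description, and tests are those of single genes adjusted over all 17211 genes.

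The samples were 10 brains of *Winnie* mice and 10 brains of C57BL/6 mice. *Winnie* mice have a missense mutation in *Muc2*, which encodes the main mucin of the gut, and their colitis arises without induction. The C57BL/6 mice came from the same breeding colony. Mice of both genotypes were 14 weeks old, received no treatment named in the labels, and each group has 5 samples labelled female and 5 labelled male. The labels number the samples of each group and do not say how brains correspond to litters or cages.

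Replication-dependent histone genes supply the histones H1, H2A, H2B, H3 and H4 that package newly copied DNA, and their mRNAs are made in S phase. Most of these mRNAs end just after a short stem-loop and have no polyA tail, which is why a polyA library captures few of them, although several of the genes also give longer, polyadenylated transcripts in cells that no longer divide. Replacement histone genes, such as those of H3.3, H2A.Z and macroH2A, are transcribed through the whole cell cycle, usually contain introns and give ordinary polyadenylated mRNAs, and they supply most new histone in neurons.

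GENCODE M21 annotates 67 protein-coding replication-type genes on GRCm38, the assembly of the deposited values, and 11 of them were listed. By cluster these were 5 of 54 Hist1 genes, 4 of 10 Hist2 genes, 2 of 2 Hist3 genes and 0 of 1 Hist4 genes. Of 15 annotated protein-coding replacement genes, 10 were listed. The remaining 4 members are no ordinary coding genes. *H3f3aos* is an antisense gene at *H3f3a*, *H3f3c* and *H3f3a-ps2* are annotated as processed pseudogenes of H3.3, and the row named *Hist2h2bb* has an identifier that GENCODE M21 gives to a lincRNA, Gm42743, which overlaps *Hist2h2bb* on the same strand.

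The stem-loop was searched for on the sense strand of every annotated transcript of these genes, because the transcript that runs past it is the form that can be polyadenylated. A match was found in 9 of the 11 listed coding replication-type genes and in *H2afx*, the source of the DNA-damage variant H2A.X and the only one of the 10 coding replacement genes with a match. No match was found in the annotated transcripts of *Hist1h2bc* and *Hist2h2be*. The windows of the matching members with most sequence after the stem-loop or the highest levels are printed 5′ to 3′, with the stem-loop in capitals and 5 transcript bases on either side.
*Hist1h2be*: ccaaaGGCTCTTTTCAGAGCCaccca
*Hist3h2a*: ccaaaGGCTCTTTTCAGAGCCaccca
*Hist2h4*: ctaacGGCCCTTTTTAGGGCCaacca
*Hist1h1c*: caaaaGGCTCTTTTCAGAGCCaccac
*Hist3h2ba*: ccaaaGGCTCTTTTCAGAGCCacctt
*H2afx*: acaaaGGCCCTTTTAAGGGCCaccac
*Hist1h1c*, *Hist1h2be*, *Hist3h2a* and *Hist3h2ba* hold the same 16 bases, whereas *H2afx* and *Hist2h4* differ from them within the loop and stem. The annotated transcript goes on for 1861 bases after the stem-loop in *Hist1h2be*, 1643 in *Hist3h2a*, 1257 in *Hist2h4*, 840 in *Hist1h1c*, 822 in *H2afx* and 169 in *Hist3h2ba*. In the other members with a match it goes on for 377 bases in *Hist2h3c2*, 330 in *Hist1h4i*, 46 in *Hist1h4h* and 35 in *Hist2h2aa2*. Over the listed genes with a match the median was 377 bases, with at least 150 bases in 7 of 9. Among the 56 coding replication-type genes that were not listed, 37 had a match, the median was 51 bases, and 15 had at least 150. These lengths describe the annotation and not where the sequenced molecules ended.

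Promoter sequences of 19 members were found in RefSeq (GRCm38.p6), each holding 250 bases before and 50 bases after an annotated start. Those of 2 replication-type members lower in *Winnie* brain and of the pair that encodes H3.3 are shown on the strand of the gene. Capitals mark CCAAT on either strand, TATAAA on the strand of the gene, and the octamer ATTTGCAT on either strand. This octamer is a motif bound by Oct1 and is known from H2B promoters, among others. For *Hist1h2be*, RefSeq gives a pair of starts and the downstream one is shown.
*Hist1h2be* chr13:23585921-23586220 (minus strand): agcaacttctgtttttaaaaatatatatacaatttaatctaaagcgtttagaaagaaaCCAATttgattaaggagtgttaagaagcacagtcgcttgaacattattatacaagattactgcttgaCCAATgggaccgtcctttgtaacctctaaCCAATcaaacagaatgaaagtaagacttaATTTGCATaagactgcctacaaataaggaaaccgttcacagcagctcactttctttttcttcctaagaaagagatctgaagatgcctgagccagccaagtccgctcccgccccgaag
*Hist3h2a* chr11:58954435-58954734 (plus strand): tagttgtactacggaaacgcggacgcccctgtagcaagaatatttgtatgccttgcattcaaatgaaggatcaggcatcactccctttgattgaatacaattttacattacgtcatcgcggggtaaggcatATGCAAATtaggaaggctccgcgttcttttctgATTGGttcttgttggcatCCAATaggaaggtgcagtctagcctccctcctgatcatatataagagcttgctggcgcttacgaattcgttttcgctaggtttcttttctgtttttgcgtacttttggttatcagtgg
*H3f3a* chr1:180813556-180813855 (minus strand): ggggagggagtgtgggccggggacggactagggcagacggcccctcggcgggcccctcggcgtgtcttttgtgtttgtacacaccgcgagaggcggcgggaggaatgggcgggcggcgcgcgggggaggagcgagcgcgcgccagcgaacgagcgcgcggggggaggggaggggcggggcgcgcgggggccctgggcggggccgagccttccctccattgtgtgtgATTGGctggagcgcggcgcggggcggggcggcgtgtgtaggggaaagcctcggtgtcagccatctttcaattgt
*H3f3b* chr11:116024455-116024754 (minus strand): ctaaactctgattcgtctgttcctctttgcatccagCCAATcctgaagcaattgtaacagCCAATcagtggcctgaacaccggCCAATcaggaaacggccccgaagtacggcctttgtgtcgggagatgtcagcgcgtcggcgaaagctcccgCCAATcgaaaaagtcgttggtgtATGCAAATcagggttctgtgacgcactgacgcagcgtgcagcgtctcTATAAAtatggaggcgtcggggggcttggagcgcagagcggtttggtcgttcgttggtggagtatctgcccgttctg
CCAAT or its complement occurred in 37.4% of 32851 RefSeq promoters of this length, TATAAA in 8.32% and the octamer in 1.74%. Among members with a promoter, CCAAT was found in 7 of 9 replication-type and 6 of 10 replacement genes. The octamer was found in *Hist1h2be*, *Hist2h2bb* and *Hist3h2a* among replication-type genes and in *H3f3b* among replacement genes. For *Hist1h2be* it was found at the start shown and not at the other. A gene was counted if any of its starts held the motif, whereas the shares above are over single promoters. TATAAA was found in *Hist1h4i*, *Hist3h2ba* and *H3f3b*. The *H3f3a* window held 1 CCAAT match and neither of the other motifs, and the *H3f3b* window held 4 CCAAT matches and both of the others. None of these motifs contains another. A match is a description of the sequence only.

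Samples held between 16540303 and 23923769 reads (median 19087088) over all genes kept, and 3 reads correspond to at most 0.181 CPM. Markers of neurons, astrocytes, oligodendrocytes and microglia were present in every brain. *Xist* and *Ddx3y* went against the sex label in 9 samples, all C57BL/6 (every one but replicate 4), so sex is named as labelled. The sample descriptions end in numbers that run from 1 to 10 for C57BL/6 and from 11 to 20 for *Winnie* samples. The labels do not say what these numbers stand for, and any order they follow cannot be told apart from genotype.

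Replacement histone genes gave most of the histone reads. Their CPM summed to between 439.3 and 537.2 in C57BL/6 (median 494.5) and between 439.4 and 483.0 in *Winnie* brains (median 462.7), against sums of 57.3 to 72.5 (median 62.2) and 46.1 to 58.5 (median 51.8) for the replication-type genes. Per kilobase of annotated exon, the mean level over all 20 brains was highest for *H3f3b*, at 49.9 CPM per kb, followed by *H1f0*, the linker histone of differentiated cells, at 44.3. The linker histone gene *H1fx* was at 19.1, *H2afx* at 17.8, *H2afv*, which encodes a form of H2A.Z, at 12.3 and *H3f3a* at 12.1 CPM per kb. The highest replication-type gene was *Hist3h2ba*, an H2B gene, at 11.9 CPM per kb. It lay above *H2afy*, the macroH2A1 gene, at 10.9, and the H2A variant gene *H2afj*, at 10.01. *Hist1h2bc*, another H2B gene, was at 9.97 CPM per kb and *Hist1h1c*, which encodes a linker histone, at 7.85. By this measure these replication-type genes lay among the replacement genes and above *H2afy2* (macroH2A2) at 7.39 and *H2afz* (H2A.Z) at 6.63. The length counts the exons of every annotated transcript, so the order depends on the annotation. *H2afy* has 8 annotated transcripts and *H2afz* 7, whereas *Hist3h2ba*, *Hist1h2bc* and *Hist1h1c* have 1 each. Of the *H2afz* windows of 100 bases, 25.7% occur in other transcripts, mainly of *Tmcc1*, so its reads cannot be fully assigned. *Hist3h2a* was at 5.11, *Hist2h2be* at 2.77, *Hist2h3c2* at 1.04 and *Hist1h2be*, with long annotated exons, at 1.03 CPM per kb. The lowest of the coding replication-type genes were *Hist2h4* at 0.722, *Hist1h4i* at 0.782, *Hist1h4h* at 0.933 and *Hist2h2aa2* at 0.942 CPM per kb.

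**Figure D1:**
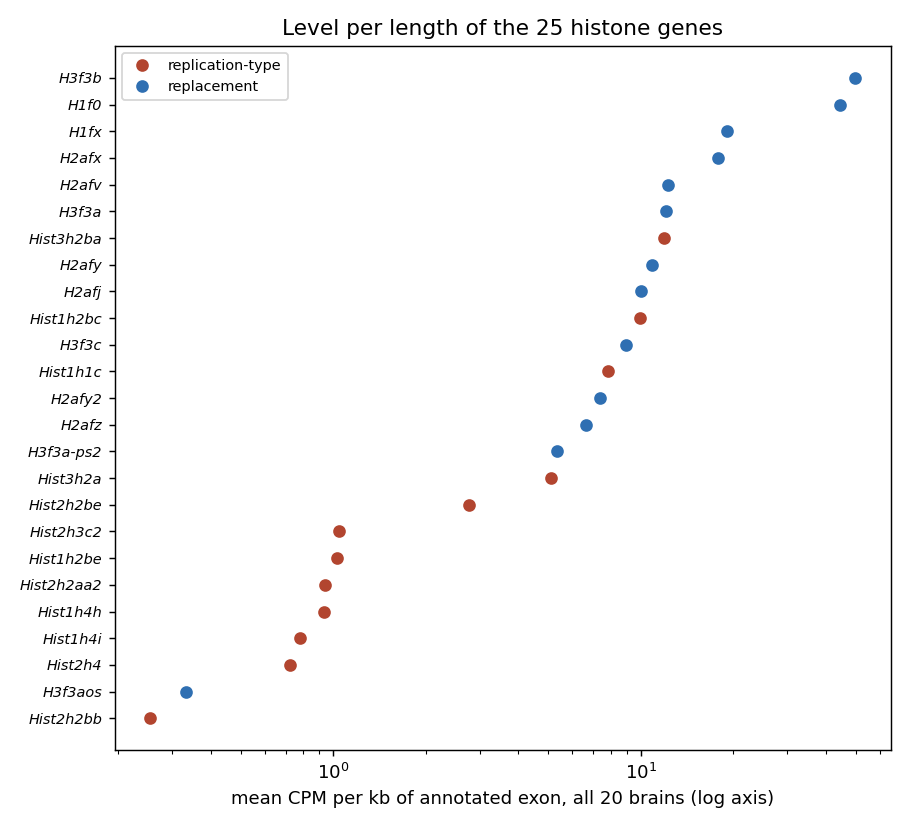
Mean CPM per kb of annotated exon over all 20 brains (horizontal log axis) for each of the 25 histone genes, with replication-type genes in red and replacement genes in blue. *H3f3b* and *H1f0* stand highest, at 49.9 and 44.3, and 4 replication-type genes lie above 5.

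The comparison of *Winnie* with C57BL/6 brain asks whether the expression of these genes differs between mice with and without spontaneous colitis. At a false discovery rate (FDR, Benjamini-Hochberg over all genes, limma on log2(CPM + 0.5)) under 0.05, 5 of 25 histone genes were lower and 0 were higher. They were the H2B genes *Hist1h2bc*, *Hist1h2be* and *Hist2h2be*, the H2A gene *Hist3h2a*, and *H3f3a*, 1 of the pair of H3.3 genes. Over all genes, 1.01% were lower, 1.52% were higher and 2.52% moved in either direction by the same rule. In whole brain, fewer cells of a type and less RNA per cell cannot be told apart.

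Across the members, the log2 fold change was below 0 in 23 of 25, against 49% of all genes, and the exceptions were the noncoding *H3f3aos* (0.06) and the row named *Hist2h2bb* (0.04). At an unadjusted p under 0.05, 14 members were lower and 0 higher, against 8.08% and 9.53% of all genes, and these were 8 of 12 replication-type and 6 of 13 replacement genes. The median log2 fold change was -0.26 over replication-type genes, -0.08 over replacement genes and 0.00 over all genes. These counts and medians hold genes that were kept through 1 group only. *Hist1h4h*, *Hist1h4i* and *Hist2h2aa2* reached 0.5 CPM in 6, 9 and 8 C57BL/6 samples but in 2 *Winnie* samples each, so their lower direction was partly fixed by the filter, and *Hist2h2bb* reached it in 1 and 3 samples. Among the 21 members with 0.5 CPM in at least 4 samples of each group, a restriction chosen after seeing the data, the log2 fold change was below 0 in 20 (49.2% of 16559 genes kept by the same rule), and at an unadjusted p under 0.05 12 were lower (8.2% of those genes) and 0 higher (9.66%). They comprised 6 of 8 replication-type and 6 of 13 replacement genes, and the medians were -0.29 and -0.08. The 5 genes with an FDR under 0.05 were all among the 21. The threshold of the study's methods adds a minimum fold change to a stricter FDR. Applied to this limma fit of all 20 samples, it was passed by no member and by 0 of the 17211 genes (0%). The study used edgeR on fewer brains, so this count does not repeat its test. The 2 groups overlapped in every member, and groups without overlap were found for 0.0291% of all genes.

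**Figure D2:**
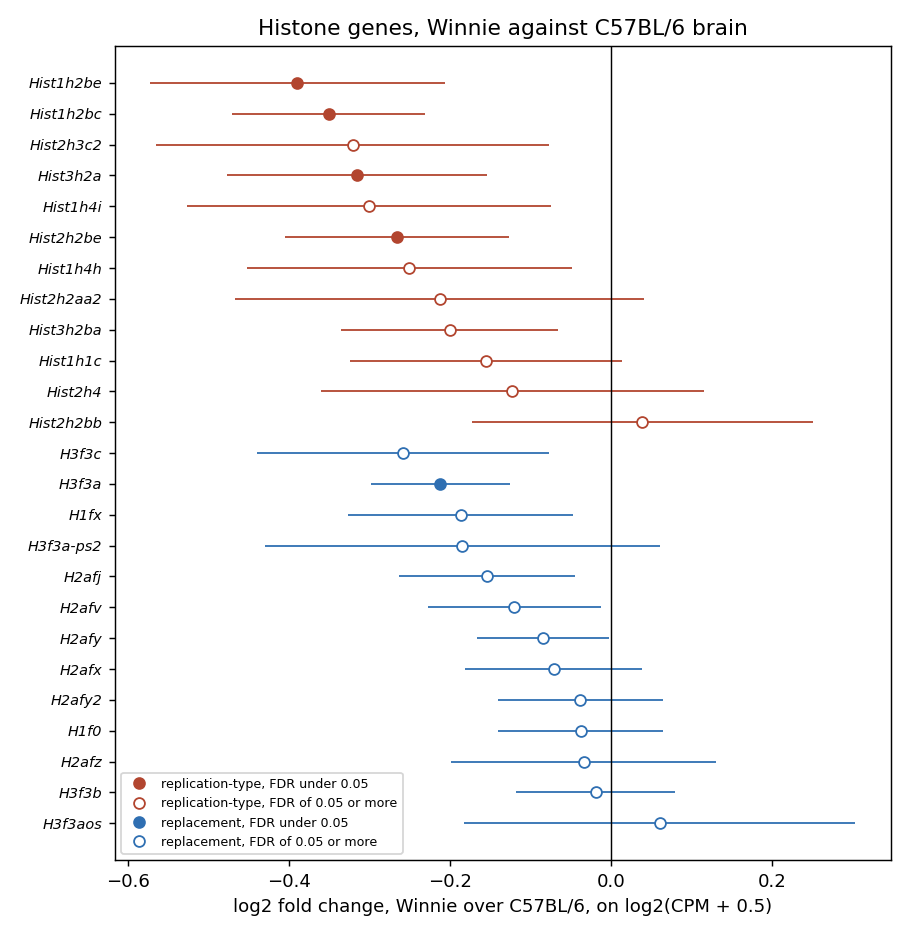
Log2 fold change of *Winnie* over C57BL/6 brain (horizontal axis, on log2(CPM + 0.5), 10 samples a group) for each histone gene, with 95% confidence intervals from limma; red marks replication-type and blue replacement genes, and filled points have an FDR under 0.05. All but *Hist2h2bb* and *H3f3aos* lie left of 0, and the 5 filled points lie between -0.39 and -0.21.

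Of the H2B genes, *Hist1h2bc* (chr13:23684199-23692908, plus strand, a 2-exon transcript) had the smallest FDR of all members. Its levels were 10.9, 13.2 and 14.03 CPM (lowest, median and highest) in C57BL/6 and 9.06, 9.71 and 11.7 CPM in *Winnie* brains. The overlap was small, since 9 C57BL/6 brains lay above the highest *Winnie* brain and only replicate 1 fell within the *Winnie* range. The log2 fold change was -0.35 (SE 0.058, FDR 0.00314, limma). Of its annotated 100-base windows, 25.4% also occur in other transcripts, mainly of *Hist1h2bg*, which was not listed.

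*Hist1h2be* (chr13:23583670-23621124, minus strand) ranged from 4.13 to 6.86 CPM (median 5.12) in C57BL/6 and from 2.97 to 4.92 CPM (median 3.91) in *Winnie* brains, and all 10 *Winnie* brains lay below the C57BL/6 median. It fell by 0.39 on the log2 scale (SE 0.090, FDR 0.0187). Its annotated exons overlap those of the H1 gene *Hist1h1e*, not listed, on the same strand.

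*Hist2h2be* (chr3:96221119-96223738, plus strand, 1 exon) ranged from 6.68 to 8.87 CPM (median 7.96) in C57BL/6 and from 5.37 to 7.71 CPM (median 6.59) in *Winnie* brains. Again all 10 *Winnie* brains were below the C57BL/6 median, and 7 were below its lowest sample. Its change was -0.27 on the log2 scale (SE 0.068, FDR 0.0342). Its FDR rose above 0.05, to between 0.0524 and 0.0768, when C57BL/6 replicate 3, 5 or 9 or *Winnie* replicate 2, 3, 7 or 8 was left out.

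*Hist3h2ba*, which lies beside *Hist3h2a* on chromosome 11, ranged from 6.46 to 9.28 CPM (median 8.01) in C57BL/6 and from 5.97 to 7.92 CPM (median 6.75) in *Winnie* brains. Its log2 fold change of -0.20 (SE 0.066) missed the threshold, with an FDR of 0.0929, although all 10 *Winnie* brains lay below the C57BL/6 median. With DESeq2 on the recovered reads its FDR was 0.0350, but that test called 5.62% of all genes, against 2.52% with limma.

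Among the H2A genes, *Hist3h2a* (chr11:58954685-58956830, plus strand, 1 exon) ranged from 9.90 to 14.5 CPM (median 12.2) in C57BL/6 and from 7.43 to 12.4 CPM (median 9.72) in *Winnie* brains. 5 *Winnie* brains lay below every C57BL/6 brain and 4 C57BL/6 brains lay above every *Winnie* brain. The log2 fold change was -0.32 (SE 0.079, FDR 0.0306). The FDR rose to between 0.0534 and 0.0719 without C57BL/6 replicate 3, 5 or 8 or *Winnie* replicate 3, 8 or 10. Part of its annotated sequence (29.8% of 100-base windows) is shared with other transcripts, mainly with *Trim17*, which overlaps it on the same strand and whose own log2 fold change was -0.14 (FDR 0.290). The second H2A gene, *Hist2h2aa2*, averaged 0.577 CPM in C57BL/6 and 0.417 CPM in *Winnie* brains. All of its 100-base windows occur in other transcripts, so its reads cannot be assigned to it alone.

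**Figure D3:**
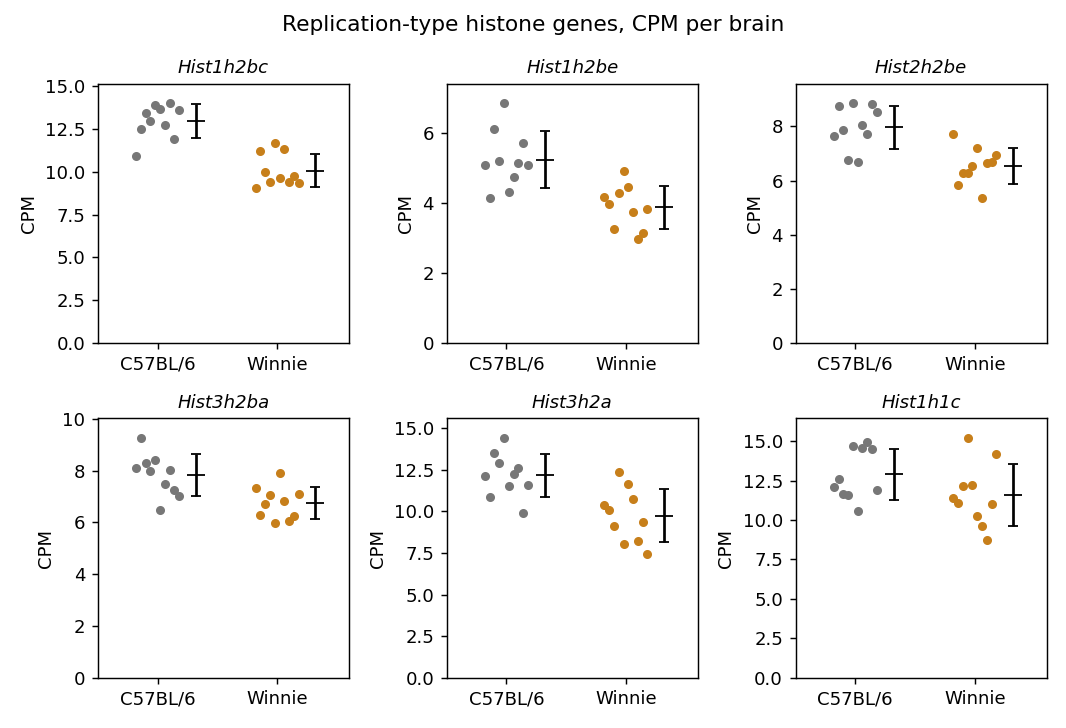
CPM of 6 replication-type histone genes (vertical axes, starting at 0) in each of 10 C57BL/6 (grey) and 10 *Winnie* (orange) brains, with the mean and SD of each group in black. In *Hist1h2bc* 9 C57BL/6 brains lie above the highest *Winnie* brain, whereas in *Hist1h1c* none does.

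The remaining replication-type genes encode linker histone, H3 and H4. *Hist1h1c*, the linker histone gene, ranged from 10.5 to 14.9 CPM (median 12.4) in C57BL/6 and from 8.75 to 15.2 CPM (median 11.3) in *Winnie* brains. *Winnie* replicate 4 had the highest level of all 20 samples, and the difference was within the spread (log2 fold change -0.16, SE 0.083, FDR 0.332). The H3 gene *Hist2h3c2* ranged from 0.828 to 1.599 CPM (median 1.25) in C57BL/6 and from 0.398 to 1.29 CPM (median 0.942) in *Winnie* brains. With 8 to 33 reads in a sample, the difference was -0.32 on the log2 scale (SE 0.12, FDR 0.140), and 61.6% of its windows are shared, mainly with *Hist2h3c1*.

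H4 mRNA was low in every brain. *Hist2h4* ranged from 0.726 to 1.71 CPM (median 1.22) in C57BL/6 and from 0.643 to 1.31 CPM (median 1.16) in *Winnie* brains, with a log2 fold change of -0.12 (SE 0.12, FDR 0.631) and wide overlap. *Hist1h4i* and *Hist1h4h* averaged 0.680 and 0.518 CPM in C57BL/6 against 0.457 and 0.359 CPM in *Winnie* brains, on 4 to 18 reads per sample, and neither passed (FDR 0.135 and 0.168). These genes were near the lower edge of what was kept. *Hist2h2bb* had 0.5 CPM in 4 samples, *Hist1h4h* in 8, *Hist2h2aa2* in 10, *Hist1h4i* in 11 and *Hist2h3c2* in 19, and every other member had it in all 20. The first 4 of these did not reach 0.5 CPM in 4 samples of each group.

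Among the replacement genes, *H3f3a* and *H3f3b* encode the same protein from different chromosomes, at chr1:180800832-180813943 and chr11:116021912-116027962, both on the minus strand. *H3f3a* ranged from 40.2 to 49.6 CPM (median 45.5) in C57BL/6 and from 36.7 to 41.5 CPM (median 39.0) in *Winnie* brains. 8 C57BL/6 brains lay above every *Winnie* brain, and the log2 fold change was -0.21 (SE 0.042, FDR 0.00866). *H3f3b*, with a higher level, ranged from 132.6 to 169.1 CPM (median 150.7) in C57BL/6 and from 134.7 to 163.4 CPM (median 147.9) in *Winnie* brains. The *Winnie* range lay inside the C57BL/6 range, and the log2 fold change was -0.02 (SE 0.048, FDR 0.884), with a 95% confidence interval from -0.12 to 0.08.

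Within each brain the ratio of *H3f3a* to *H3f3b* CPM ranged from 0.276 to 0.356 (median 0.301) in C57BL/6 and from 0.250 to 0.292 (median 0.271) in *Winnie* samples. All 10 *Winnie* brains were below the C57BL/6 median. The log2 ratio was -1.71 ± 0.11 (SD, n = 10) in C57BL/6 and -1.91 ± 0.07 (SD, n = 10) in *Winnie* brains. This ratio was chosen after the values of both genes had been seen, so it is given as a description, and whether the genes differ in their response was not tested. Of the *H3f3a* windows, 20.8% occur in other transcripts, mainly of Gm17275 on the other strand, and the strand setting of the counting is not given in the sources used here, so reads of the 2 strands cannot be told apart. *H3f3aos*, the antisense gene at its start, was at 0.993 CPM in C57BL/6 and 1.02 CPM in *Winnie* brains on average. The pseudogene *H3f3c* ranged from 3.25 to 4.72 CPM (median 4.10) in C57BL/6 and from 2.74 to 4.39 CPM (median 3.05) in *Winnie* brains, a log2 fold change of -0.26 (SE 0.089, FDR 0.109). It shares 56.7% of its windows, mainly with *H3f3a*, so reads of *H3f3a* and *H3f3c* cannot be fully told apart. *H3f3a-ps2* (log2 fold change -0.18, FDR 0.443) shares 68.9%, mainly with Gm12657, which was not listed, so its reads cannot be fully assigned either.

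**Figure D4:**
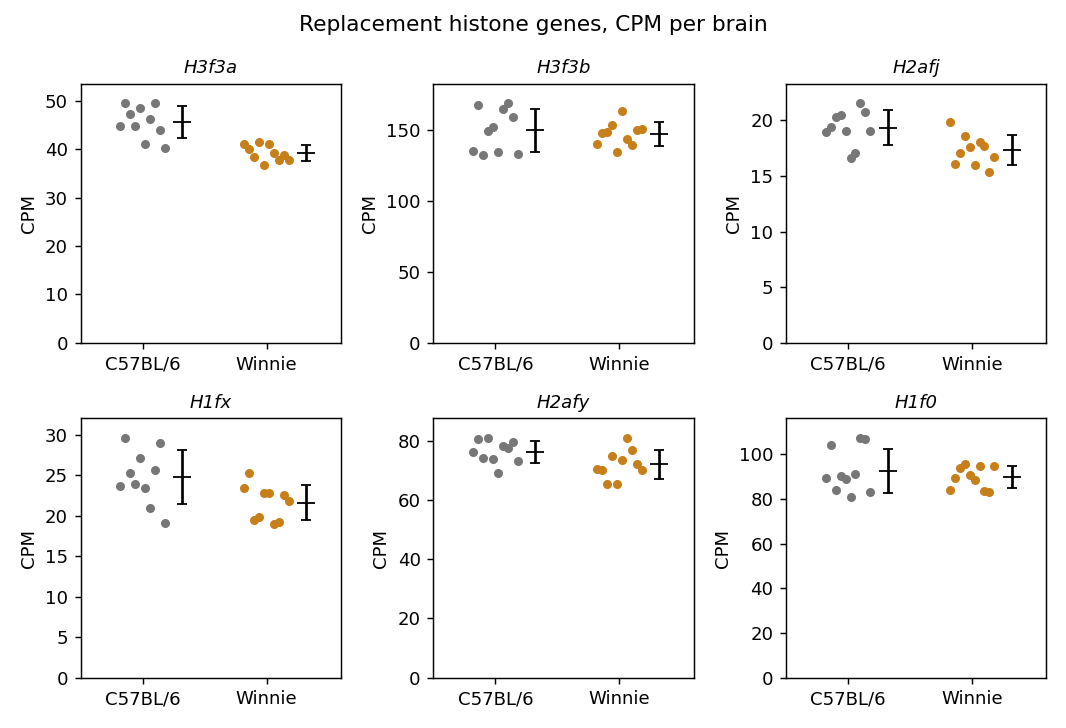
CPM of 6 replacement histone genes (vertical axes, starting at 0) in each of 10 C57BL/6 (grey) and 10 *Winnie* (orange) brains, with the mean and SD of each group in black. In *H3f3a* 8 C57BL/6 brains lie above every *Winnie* brain, whereas the *H3f3b* values of *Winnie* brains lie inside the C57BL/6 range.

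The linker histone genes of the replacement class were *H1f0* and *H1fx*. *H1f0* ranged from 80.6 to 107.4 CPM (median 89.8) in C57BL/6 and from 83.1 to 95.6 CPM (median 90.1) in *Winnie* brains, with no difference beyond the spread (log2 fold change -0.04, SE 0.050, FDR 0.753). *H1fx* ranged from 19.1 to 29.7 CPM (median 24.6) in C57BL/6 and from 18.9 to 25.3 CPM (median 22.2) in *Winnie* brains. Its log2 fold change was -0.19 (SE 0.068, FDR 0.134). Without C57BL/6 replicate 10, its lowest sample in that group, the change was -0.23 with an FDR of 0.0394. Without that replicate 4.03% of all genes passed, against 2.52% with all samples.

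Of the H2A variants, none passed an FDR of 0.05. *H2afy* ranged from 69.3 to 81.0 CPM (median 76.9) in C57BL/6 and from 65.6 to 81.1 CPM (median 71.4) in *Winnie* brains, with a log2 fold change of -0.08 (SE 0.040, FDR 0.266). *H2afx* ranged from 21.1 to 27.4 CPM (median 26.5) in C57BL/6 and from 21.5 to 27.4 CPM (median 24.7) in *Winnie* brains, almost the same range, with a log2 fold change of -0.07 (SE 0.054, FDR 0.524). *H2afj*, a variant with an ordinary polyadenylated mRNA, ranged from 16.6 to 21.6 CPM (median 19.3) in C57BL/6 and from 15.4 to 19.8 CPM (median 17.4) in *Winnie* brains. Its log2 fold change was -0.15 (SE 0.053, FDR 0.111). Its FDR with DESeq2, which called 5.62% of all genes against 2.52% with limma, was 0.0464. The log2 fold change was -0.12 for *H2afv* (FDR 0.221), -0.04 for *H2afy2* (FDR 0.748) and -0.03 for *H2afz* (FDR 0.876).

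Summed over the 12 replication-type genes, C57BL/6 brains had 63.7 ± 4.22 CPM and *Winnie* brains 52.2 ± 3.32 CPM (SD, n = 10 each). The highest *Winnie* sum, 58.5 CPM in replicate 4, lay above only the lowest C57BL/6 sum, 57.3 CPM in replicate 6. These sums include *Hist1h4h*, *Hist1h4i* and *Hist2h2aa2*, whose lower direction was partly fixed by the filter, and the row named *Hist2h2bb*. In C57BL/6 these rows averaged 0.518, 0.680, 0.577 and 0.369 CPM, and in *Winnie* brains 0.359, 0.457, 0.417 and 0.397 CPM. A sum without them was not made. The replacement sum was 490.2 ± 36.0 CPM in C57BL/6 and 464.3 ± 13.3 CPM in *Winnie* brains, and its ranges overlapped widely. Within a group, some brains were high in many genes at once. C57BL/6 replicates 5 and 8 lay above their group's median in 10 of the 12 replication-type genes each, as did *Winnie* replicate 1.

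**Figure D5:**
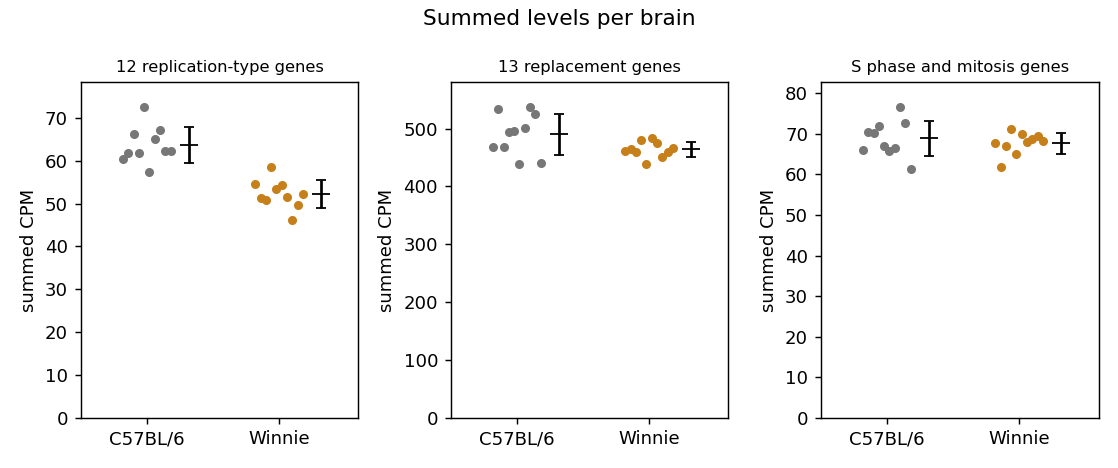
Summed CPM (vertical axes, starting at 0) of the 12 replication-type histone genes, the 13 replacement histone genes and the 14 listed genes of S phase and mitosis in each C57BL/6 (grey) and *Winnie* (orange) brain, with the mean and SD of each group in black. The replication-type sums of 46.1 to 58.5 in *Winnie* barely overlap those of 57.3 to 72.5 in C57BL/6, whereas the S phase sums overlap. The replication-type sums include *Hist1h4h*, *Hist1h4i* and *Hist2h2aa2*, which were kept through C57BL/6 samples only, and the row named *Hist2h2bb*.

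By labelled sex, the log2 fold change of the 5 genes that passed lay between -0.36 and -0.25 among samples labelled female and between -0.42 and -0.18 among those labelled male. The smallest FDR of the interaction of genotype and label over the members was 0.828 (*Hist3h2ba*). Since *Xist* and *Ddx3y* went against the label in 9 of 10 C57BL/6 samples and in 0 *Winnie* samples, each labelled contrast sets mostly brains of one *Xist* and *Ddx3y* pattern against brains of the other, and neither it nor the interaction tests a dependence on sex. With the *Ddx3y* level as a covariate in place of the label, 5 members again passed an FDR of 0.05.

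No gene of the lists for the cell cycle, histone mRNA processing or histone deposition passed an FDR of 0.05. Over all genes 2.52% passed it, and at an unadjusted p under 0.05 8.08% were lower and 9.53% were higher. Of 14 listed genes of S phase and mitosis, 0 passed an FDR of 0.05 with limma and 1 was lower at an unadjusted p under 0.05, *Top2a*, a topoisomerase of dividing cells (log2 fold change -0.32, FDR 0.120), with *Rrm2*, a ribonucleotide reductase subunit, next (-0.19, FDR 0.393). Their CPM summed to 61.2 to 76.6 in C57BL/6 and 61.7 to 71.1 in *Winnie* brains. The list of 15 genes for the 3′ processing of histone mRNA also holds *Npat*, a coactivator of replication-dependent histone genes and not a processing factor. Of these 15 genes 0 passed, and at an unadjusted p under 0.05 only *Npat* was higher (0.17, FDR 0.0709). *Ncbp1*, of the cap-binding complex, followed at 0.08 (FDR 0.307). Of 24 listed genes of histone chaperones and deposition, of which *Srcap* has a pair of rows, 0 passed, with 6 rows higher and 1 lower at that p. Those of smallest p were *Srcap*, of the complex that deposits H2A.Z (0.21, FDR 0.0738), and *Atrx*, which with Daxx deposits H3.3 (0.12, FDR 0.0786).

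RNAs that normally lack a polyA tail were read for carry-over into the polyA libraries. Only *Rn7sk* of 10 such genes was listed, at 0.622 to 2.42 CPM in C57BL/6 and 0.912 to 2.34 CPM in *Winnie* brains (log2 fold change -0.13, FDR 0.709). The 7 listed genes of snoRNAs and scaRNAs summed to 4.28 to 6.63 CPM in C57BL/6 and 3.43 to 5.62 CPM in *Winnie* brains. Of these, 0 passed an FDR of 0.05. *Snord104* (-0.26, FDR 0.247) and *Snora7a* (-0.24, FDR 0.258) were lower at an unadjusted p under 0.05, as were 8.08% of all genes. Mitochondrial genes took 7.71% to 9.21% of reads in C57BL/6 and 5.96% to 10.8% in *Winnie* brains.

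Among the markers of 10 brain cell types, 2 genes passed an FDR of 0.05, which 2.52% of all genes passed. Of 4 endothelial markers 1 passed, *Cldn5*, which was lower (-0.47, FDR 0.00331), and the markers summed to 97.1 to 147.6 CPM in C57BL/6 and 97.6 to 129.0 CPM in *Winnie* brains. Of 3 markers of oligodendrocyte precursors, which still divide in the adult brain, 1 passed, *Pdgfra*, which was higher (0.20, FDR 0.0330), with sums of 80.4 to 109.1 and 90.2 to 116.4 CPM. The 4 neuroblast markers gave 0 calls, with *Dlx1* (0.18, FDR 0.251) and *Dlx2* (0.19, FDR 0.319) of smallest p, and so did those of neurons (*Rbfox3* -0.10, *Stmn2* -0.04), astrocytes (*Aqp4* -0.16, *Gja1* -0.09), oligodendrocytes (*Mog* -0.09, *Mbp* -0.05) and microglia (*Cx3cr1* -0.18, *P2ry12* -0.11). Choroid plexus markers summed to 707.8 to 1036 CPM in C57BL/6 and 484.7 to 982.2 CPM in *Winnie* brains (0 of 5 passed, *Kcne2* -0.40, *Ttr* -0.22), erythroid genes to 93.6 to 208.4 and 40.6 to 149.8 CPM (0 of 5 passed, *Hba-a2* -0.69, *Alas2* -0.28), and meningeal fibroblast markers to 50.5 to 69.7 and 58.3 to 70.0 CPM (0 of 4 passed, *Col1a1* -0.24, *Dcn* 0.08). The named genes are those of smallest p and do not stand for their lists. Over all genes, the log2 fold change was below 0 in 49%. It was below 0 in 2 of 4 endothelial, 1 of 3 precursor, 0 of 4 neuroblast and 3 of 4 neuron markers. It was below 0 in 2 of 4 astrocyte, 4 of 4 oligodendrocyte and 3 of 4 microglia markers. For choroid plexus, erythroid and meningeal fibroblast genes it was below 0 in 4 of 5, 5 of 5 and 1 of 4. The part of any of these cells in the histone values was not tested.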

How the data were processed

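Total brain RNA of *Winnie* and C57BL/6 mice was made into polyA libraries by the authors and sequenced as paired 100-base reads. The authors aligned reads to GRCm38 within the RNAsik pipeline, counted them per gene with FeatureCounts and deposited CPM made with Degust. The aligner, the strand setting and the low-count filter are not given in the sources used here. The labels name more brain samples than the paper analysed, and all 20 were used.

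The members and gene lists were chosen with earlier results of these data known. Deposited CPM was compared as log2(CPM + 0.5) with limma 3.58.1 (trend, robust) in R 4.3.3 over all 17211 genes and all 20 samples, without covariates, with Benjamini-Hochberg adjustment (FDR). Whole reads were recovered from the CPM steps (100% of values, within 0.0006 CPM) for edgeR 4.0.16 and DESeq2 1.42.0. The limma and edgeR tests, but not DESeq2, were also run on simulated counts, and the outcome is not given here. Full values were given for the 8 replication-type and 6 replacement genes of highest mean CPM, members with an FDR under 0.05 and the 3 of smallest p per class, and other lists were counted with their 2 genes of smallest p. Coordinates, exon lengths, stem-loops and shared 100-base windows came from GENCODE M21, and promoters from RefSeq. As alternatives, the pseudocount was set to 0.1 or 1, genes with a mean under 1 CPM were dropped, and the fit was repeated with median-ratio scaling, labelled sex or *Ddx3y* as a covariate, a replicate block, both count tests and each sample left out. An interaction of genotype with labelled sex and counts over genes with 0.5 CPM in 4 samples of each group were added after seeing the data. Replicates are labelled as separate samples, and p-values measure the spread between them. Read-based floors cover counting error only.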

Additional observations from a re-analysis of the deposited data

How the results depend on the processing

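The number of histone genes with an FDR under 0.05 was 5 with both pseudocounts, the minimum mean CPM of 1 (which kept 21 members), median-ratio scaling (which moved the median of all genes by -0.0029), both sex covariates and edgeR. It was 7 with DESeq2, which added *Hist3h2ba* and *H2afj* and gave no adjusted p for 6 low members. DESeq2 called 5.62% of all genes, against 2.52% in the main fit. The number of histone genes ranged from 3 to 6 when 1 sample was left out. It was 3 without C57BL/6 replicate 3 or 5 or *Winnie* replicate 3 or 8. It was 6 without C57BL/6 replicate 10, where 4.03% of all genes passed. The labels do not say that replicate numbers pair the samples. Of 10 same-numbered pairs, 2 had a correlation of deviations above 0.1 (median -0.129), and 1 correlated best with its own number. These correlations hold all genes, sex-linked ones included, and 9 C57BL/6 samples went against their sex label. They therefore cannot show that pairing is absent. With a replicate block 3 members passed, with *Hist3h2a* at an FDR of 0.0508 and *Hist2h2be* at 0.0710, and the block changed no other member's call. *Hist1h2bc*, *Hist1h2be* and *H3f3a* passed under every alternative run, the block and each left-out sample included. The median log2 fold change of replication-type genes depended on the scale, with -0.20 at a pseudocount of 1, -0.34 at a pseudocount of 0.1, -0.34 with edgeR and -0.35 with DESeq2. These medians include *Hist1h4h*, *Hist1h4i* and *Hist2h2aa2*, which were kept through C57BL/6 samples only. With a minimum mean CPM of 1, which dropped them and the row named *Hist2h2bb*, the median was -0.29. *Hist1h4h* moved from -0.16 at a pseudocount of 1 to -0.45 at 0.1, and *Hist1h4i* from -0.20 to -0.49. The order of single genes depended on the scale too, since *Hist1h4i* was at -0.49 and *Hist1h2be* at -0.42 with a pseudocount of 0.1. With 1 sample left out at a time, the median log2 fold change ranged from -0.29 to -0.24 for replication-type and from -0.10 to -0.07 for replacement genes, and 12 to 16 members had an unadjusted p under 0.05. These ranges include the same low genes, and the share of all genes past that p in these fits is not given here. The only direction that turned was that of *H3f3b*, whose log2 fold change ranged from -0.038 to 0.00097 with 1 sample left out and was above 0 without C57BL/6 replicate 8. Over all genes, the 434 calls became 227 with the block, 968 with DESeq2 and 169 to 694 with 1 sample left out. The causes of these shifts were not tested. Depth limits the H4, *Hist2h2aa2* and *Hist2h3c2* values, which rest on 4 to 41 reads per sample.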
